A study of Mus musculus with 12 samples.

Results

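H3K4me3 was profiled by CUT&Tag in 4 regions dissected from the forebrain of wild-type C57BL/6J mouse embryos. The intervals described here carried the mark in all 4 regions, away from any transcription start site (TSS) annotated by GENCODE. The peak lists of the 4 regions were joined wherever peaks overlapped or touched, which gave 29783 union intervals outside the mitochondrial genome. A union interval was a member if it held a peak from every list and lay more than 2 kb from every transcript start in the GENCODE M21 annotation of GRCm38. In all, 1703 of the 29783 intervals met this rule. Of all union intervals 49.8% held a peak from every list, and of the 12939 distal ones 13.2% did. The members were thus chosen by the presence of a peak in each list and by their distance, and both are given as description, with no test.

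The regions were the medial, lateral and caudal ganglionic eminences (MGE, LGE and CGE), which produce GABAergic neurons, and the cortex (CTX), whose progenitors produce glutamatergic neurons. Tissue of several embryos was dissected at E12.5, and the protocol in the labels names a later stage as well. Each region had 2 biological replicates, from 12 libraries in all (3 for MGE, 2 for LGE, 4 for CGE and 3 for CTX), and the labels give each library 1 region although a sentence of the methods speaks of nuclei pooled from the regions. The authors merged the replicates before they called peaks, so a region is 1 list, with no replicate error, and a difference between lists could not be compared with the spread between replicates. The methods state how deeply the libraries were sequenced: of the eminences, CGE had by far the most reads and MGE the fewest, and the entry for a CTX replicate is misprinted. Of the eminences, CGE also had the highest median of covered bases per member and MGE the lowest, although MGE had the most peaks of any list. The median of CTX was lower still, and its depth is only partly stated. A difference between regions thus cannot be told apart from one in sequencing depth. How many filtered reads lie behind a single peak is not given in the lists. The lists held 25339 (MGE), 17284 (LGE), 17752 (CGE) and 21442 (CTX) peaks, and between 6.99% (MGE) and 9.88% (LGE) of a list's peaks lay in a member. As a check of the labels, all 3 MGE markers (Nkx2-1, Lhx6 and Lhx8) had a promoter peak in MGE, LGE and CGE and none had one in CTX, whereas the 3 LGE markers (Gsx2, Meis2 and Ebf1) and the 3 CGE markers (Nr2f2, Prox1 and Sp8) had one in every list. Of the 3 CTX markers, Tbr1 had a promoter peak in every list, Emx1 had one in LGE and CTX, and Neurod6 had one in no list. By the presence of a peak, these markers thus set CTX apart from the eminences only through the MGE markers. They set no eminence apart from another, although the paper describes the mark at Nr2f2 as restricted to CGE. The microglial and red blood cell markers had a promoter peak in no list, 1 of the 3 endothelial markers (Kdr) had one in every list, and so did 1 of the 3 mesenchymal markers (Pdgfrb), while Col1a1 had one in every list but LGE. What other cell types add to the members was not tested.

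H3K4me3 is deposited by the SET1 and MLL methyltransferases, which are drawn to unmethylated CpG-rich DNA and to initiating RNA polymerase, and it is therefore mostly found over promoters. Away from annotated starts, the mark can occur at promoters that an annotation lacks, at CpG islands inside or between genes, at strongly active enhancers, and at genes read by RNA polymerase III such as those of transfer RNAs (tRNAs). A tRNA gene carries its promoter within itself, as an A box and a B box that are bound by the factor TFIIIC.

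Several kinds of site recurred among the members, and their sequences are shown before the values. GENCODE M21 holds no start for the tRNA genes that RefSeq annotates, and 5 of the 10 members with most bases covered by all 4 lists held a RefSeq tRNA gene. The tRNA genes of 3 of these are printed from GRCm38 on the strand of the gene, 5′ to 3′, with the letters of the B box (GTTCNANNC) in capitals. They are n-TLaag8 (leucine, chr14:51063883-51063964, plus strand), n-TLtaa4 (leucine, chr19:12011086-12011168, minus strand) and n-TPtgg8 (proline, chr7:98815415-98815486, plus strand).
n-TLaag8: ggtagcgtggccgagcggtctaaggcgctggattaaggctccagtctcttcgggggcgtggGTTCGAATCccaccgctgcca
n-TLtaa4: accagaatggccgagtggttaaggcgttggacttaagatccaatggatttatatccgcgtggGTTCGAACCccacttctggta
n-TPtgg8: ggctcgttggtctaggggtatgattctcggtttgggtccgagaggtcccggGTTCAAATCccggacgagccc

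The second kind lay at a start that RefSeq lists and GENCODE M21 lacks, and the third was CpG-rich with no start in either annotation. The central 150 bases of the member of each kind with most bases covered by all 4 lists are printed on the plus strand of GRCm38 with every CG in capitals. The first (chr9:67633415-67633564) holds a RefSeq start of Tln2, which encodes the adhesion protein talin 2, and the second (chr15:85671126-85671275) lies in an intron of the long noncoding RNA gene Lncppara. The same was done for the central 200 bases of a member inside Lhx6 (chr2:36091321-36091520), the transcription factor gene of MGE-derived interneurons, which was chosen after its values were seen. The first 95 of these 200 bases lie in a coding exon of Lhx6 and the other 105 in the adjoining intron, where the centre falls. These windows held 14, 15 and 17 CG pairs.
Tln2 start: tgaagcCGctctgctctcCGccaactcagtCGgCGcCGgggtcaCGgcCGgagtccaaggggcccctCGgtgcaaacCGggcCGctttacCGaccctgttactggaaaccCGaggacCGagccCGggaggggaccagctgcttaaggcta
Lncppara intron: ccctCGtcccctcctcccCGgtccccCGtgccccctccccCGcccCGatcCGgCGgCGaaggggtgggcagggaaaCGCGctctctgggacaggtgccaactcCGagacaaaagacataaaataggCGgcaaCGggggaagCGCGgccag
Lhx6 exon and intron: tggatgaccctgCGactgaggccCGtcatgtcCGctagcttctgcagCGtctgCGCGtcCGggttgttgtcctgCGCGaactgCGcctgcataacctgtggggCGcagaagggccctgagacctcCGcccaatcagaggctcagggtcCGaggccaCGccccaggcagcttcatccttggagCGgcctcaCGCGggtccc

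The fourth kind overlapped a presumptive enhancer of the study, an interval called from accessible chromatin and H3K27ac that also intersects a candidate of the VISTA collection. The central 200 bases of the third strongest of these members are shown (chr12:86824421-86824620, intergenic, plus strand of GRCm38), chosen after the values were seen because they hold the motifs described below. Its capitals mark a homeodomain core (TAATTA) and an E-box (CAGATG).
Enhancer on chromosome 12: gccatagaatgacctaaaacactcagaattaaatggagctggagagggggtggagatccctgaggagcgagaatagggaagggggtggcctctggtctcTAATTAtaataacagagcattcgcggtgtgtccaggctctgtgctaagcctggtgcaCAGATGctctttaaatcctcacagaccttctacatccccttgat

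The members were short blocks. The union width ranged from 270 to 4153 bp, with a median of 916 bp (95% interval of the median from order statistics, 897 to 942), whereas the 13121 intervals of all 4 lists within 2 kb of a start had a median of 1422 bp. The covered bases of a member, the sum of its bases under peaks of 1 list, had a median of 492 bp in CTX (473 to 514) and 506 bp in MGE (493 to 526), and of 744 bp in LGE (723 to 769) and 817 bp in CGE (792 to 841). The 4 lists shared a median of 343 bp per member (329 to 363). In 1652 members (97.0%) at least 1 base was covered by all 4 lists, and in the other 51 at most 3 lists covered the same base. The CGE list had the most covered bases in 1007 members (59.1%) and LGE in 438 (25.7%), whereas CTX had the fewest in 768 (45.1%) and MGE in 733 (43.0%). The near-start intervals were ordered in the same way, with CGE the widest in 76.6% and MGE the narrowest in 57.2%. A member was made of 1 peak in every CGE case, in 1699 members in LGE, 1648 in CTX and 1637 in MGE. The median ratio between the widest and the narrowest list was 2.04, with quartiles of 1.52 and 2.97, and in 829 members (48.7%) it was under 2. Across the 1703 members, the covered bases of LGE and CGE had a Spearman correlation of 0.78, and the other 5 pairs had correlations between 0.54 and 0.58. The lists also differ in how short their peaks can be. MGE and CTX go down to 114 and 122 bp, while LGE and CGE hold no peak under 243 and 242 bp. With only peaks of at least 243 bp kept, 1324 intervals met the rule for members. The part of this difference in the widths, ratios and correlations was not tested.

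Peaks in members ranked below the middle of their list by their median, except by fold in MGE. The fold enrichment of a peak, the ratio of merged reads to the background that the peak caller estimated, is averaged over the peak and was compared only by rank within a list. The highest fold of a member had its median at percentile 29.8 of all peaks of the CGE list, 32.4 of LGE, 43.1 of CTX and 55.05 of MGE. In units of fold these medians were 4.37 (CGE), 4.65 (LGE), 4.69 (CTX) and 4.90 (MGE). The best −log10 q of a member, the peak caller's adjusted p on a log scale, was under 2 for 40 members in CGE, 81 in LGE, 134 in CTX and 199 in MGE. The median of this value stood at percentile 22.3 of all peaks of the LGE list, 23.3 of CGE, 37.7 of CTX and 47.7 of MGE.

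More members lay between genes than inside them. Of the 1703 members, 800 overlapped a GENCODE gene (47.0%, Wilson 95% interval 44.6 to 49.4), against 54.1% of all distal intervals and 55.9% (54.8 to 56.9) of the 8852 found in 1 list. By the midpoint of the stretch shared by the most lists, which is called the centre from here on, 917 members were intergenic (53.8%), 610 intronic (35.8%), 124 in a coding exon (7.28%) and 52 in another exon (3.05%). Of the distal intervals in 1 list, 50.6% were intronic and 2.20% were in a coding exon. Intervals of a genome are not replicates, and the Wilson intervals cover counting error only.

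CpG-rich DNA was more frequent the more lists held the interval. A member was called CpG-rich if the 500 bases around its centre had a GC content of at least 50% and an observed over expected CpG ratio of at least 0.6. This held for 513 members (30.1%, 28.0 to 32.3), against 2.23% of distal intervals in 1 list, 7.73% in 2 lists and 14.5% in 3 lists, and 7.37% of all distal intervals. With stricter limits of 55% and 0.75 it held for 13.7% of members. It held for 80.5% (79.8 to 81.1) of the 13121 near-start intervals of all 4 lists. The median GC content of the members was 56.8% and their median CpG ratio 0.50, against 65.4% and 0.78 for the near-start intervals. Members are wider than the intervals of fewer lists, so the shares were also compared at like width, a comparison added after the values were seen. Among intervals 800 to 1200 bp wide, 32.6% of 644 members were CpG-rich (29.1 to 36.3) and 16.1% of 442 distal intervals of 1 to 3 lists (12.9 to 19.8). At 500 to 800 bp the CpG-rich shares were 18.5% and 7.54% and at 1200 to 2000 bp 45.01% and 18.3%, and in none of the 3 bands did the Wilson intervals overlap. The share inside a gene was 44.8% (40.5 to 49.1) against 53.9% (51.2 to 56.6) at 500 to 800 bp, where the intervals did not overlap, and 46.9% against 51.6% and 49.6% against 60.6% in the wider bands, where they did. The share over a presumptive enhancer was 2.36%, 2.48% and 4.31% in the 3 bands against 1.18%, 2.26% and 2.75%, with overlapping intervals in each.

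**Figure D1:**
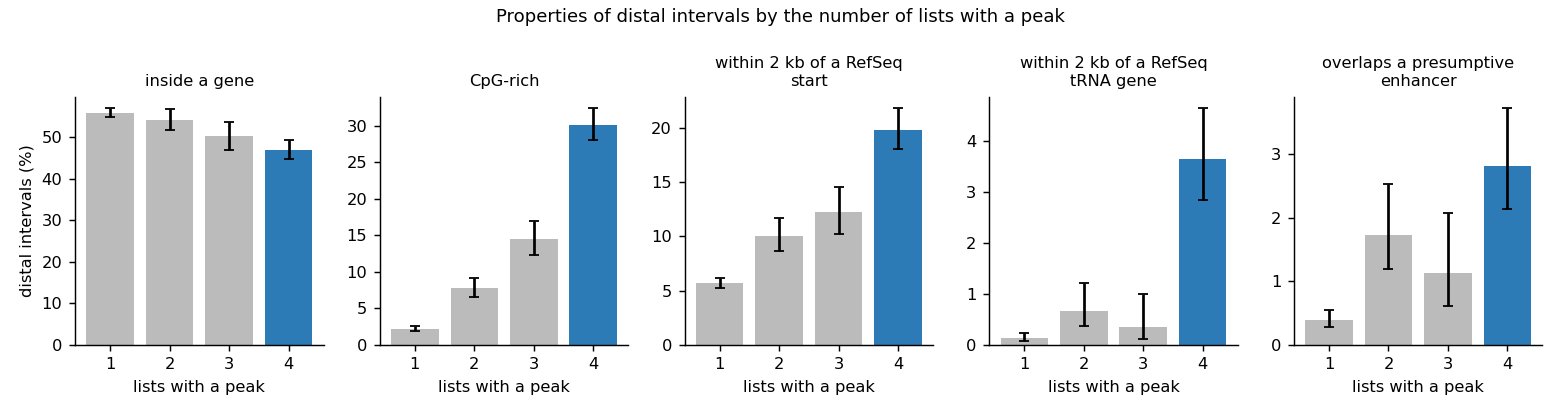
Share of distal intervals (%, each panel on its own axis from 0) with a property, by the number of lists with a peak, with Wilson 95% intervals as error bars and the members in blue. From 1 list to 4 lists the CpG-rich share went from 2.23% to 30.1% and the share within 2 kb of a RefSeq start from 5.70% to 19.8%, while the share inside a gene went from 55.9% to 47.0%.

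Short motifs were unevenly spread over the sets of intervals. Searched on both strands in the 500 bases around the centre, the GC box (GGGCGGGG), which Sp factors bind, occurred in 20.96% of members, 4.37% of the distal intervals in 1 list and 34.1% of the near-start intervals of all 4 lists. The NRF1 motif (GCGCATGCG) occurred in 1.70%, 0.237% and 2.50% of these, and the cyclic AMP response element (TGACGTCA) in 1.59%, 0.474% and 2.59%. Part of the CTCF motif (AGGGGGC) occurred in 19.2%, 10.5% and 22.1%. The AT-rich homeodomain core TAATTA occurred in 9.92% of members, 14.7% of the distal intervals in 1 list and 2.13% of the near-start intervals. The E-box CAGCTG, a site type of proneural factors, occurred in 35.9%, 31.4% and 26.3%. The part that base composition has in these shares was not tested, and a match of letters is not a bound site.

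RefSeq held a transcript start within 2 kb of 338 members (19.8%, 18.0 to 21.8), against 8.52% of all distal intervals and 5.70% of those in 1 list. At like width the shares were 14.1% against 8.87% for the distal intervals of 1 to 3 lists at 500 to 800 bp and 28.3% against 12.8% at 1200 to 2000 bp, whereas at 800 to 1200 bp they were 17.9% against 14.7%, with overlapping Wilson intervals. The start lay inside the interval for 210 of the 338. For 62 members a tRNA gene lay within this distance, 116 of the others had the start of an mRNA there, 158 had that of a long noncoding RNA and of no mRNA, and 2 had that of another RNA only. The members near a start other than a tRNA gene numbered 291, and for 231 of them each such RefSeq transcript was a computed model, whereas 60 had at least 1 curated one. To describe what the rule left in, the members were divided into 5 classes after their values were seen, taken in order: those near a tRNA gene (62, or 3.64%, against 0.672% of all distal intervals), those near another RefSeq start (276, 16.2%), those over a presumptive enhancer (39, 2.29%), those CpG-rich with none of these (380, 22.3%) and the remaining ones (946, 55.5%). Of all distal intervals, 84.8% fell in the remaining class. Near a tRNA gene lay 1.965% of members 500 to 800 bp wide against 0.471% of the distal intervals of 1 to 3 lists. At 800 to 1200 bp the shares were 2.33% against 0.679%, with overlapping Wilson intervals. At 1200 to 2000 bp they were 5.93% against 0 of 109, for which the Wilson interval reaches 3.40%. Among the 100 members with most bases covered by all 4 lists the classes had 24, 29, 4, 22 and 21 members in the same order.

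**Figure D2:**
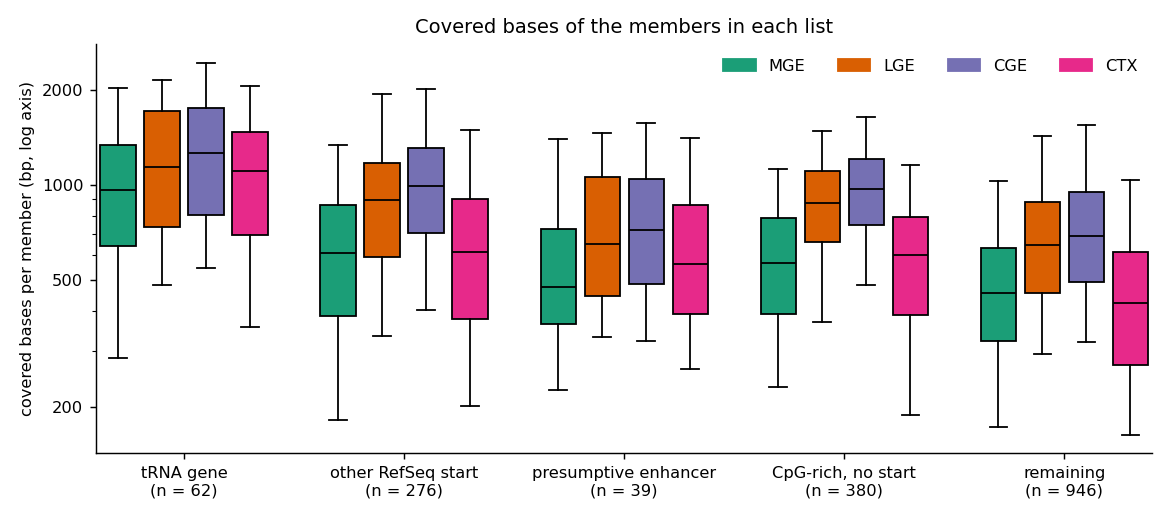
Covered bases of each member (bp, log axis) in the 4 lists, by class, as boxes from quartile to quartile with the median as a line and whiskers from the 5th to the 95th percentile. The medians of the members near tRNA genes lie between 965 and 1263 bp and those of the remaining members between 424 and 690 bp, and CGE has the highest median in every class.

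Of the 5 classes, the members near tRNA genes had the highest median width in every list and the lowest ratio between lists. Their covered bases had medians of 965 (MGE), 1139 (LGE), 1263 (CGE) and 1103 bp (CTX), and their median ratio between the widest and the narrowest list was 1.43, against 1.90 to 2.15 for the other classes. The 4 lists shared a median of 767 bp. Of the 62 members, 54 held at least 1 whole or partial tRNA gene, 20 held 2 or more, and 1 member held as many as 4. In the 54, the nearest tRNA gene lay a median of 290 bp from the centre and within 500 bp of it in 47. Of the 62, 22 were CpG-rich, with a median GC content of 50.3% and a median CpG ratio of 0.68, and 57 had an intergenic centre. The letters of the B box, searched for only after the values were seen, were found in the central window of 30 of the 62 (48.4%). They were found in 13.2% of all members, 14.9% of all distal intervals and 11.7% of the near-start intervals. Since 371 of the 403 tRNA genes in RefSeq hold these letters (92.1%), the higher share follows from how the class was defined. Of the members near tRNA genes, 28 lay on chromosome 13.

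Seen from the tRNA genes, 83 of the 403 in RefSeq lay in a member (20.6%), 72 in an interval near a GENCODE start, 25 in a distal interval of fewer lists and 223 (55.3%) in none. Of the 278 tRNA genes more than 2 kb from a GENCODE start, 83 were in a member (29.9%), 25 in another distal interval (8.99%) and 162 in no interval (58.3%). Of the 20 tRNA families, 18 had a gene in a member, from 4 of 7 phenylalanine genes to 1 of 13 asparagine genes. The families with most genes in members were leucine (11 of 25), arginine (8 of 24), proline (7 of 16), glutamate (6 of 20) and alanine (6 of 33). None of the 10 tyrosine genes was in a member, but 5 of them were in an interval near a start. Of the 57 cysteine genes none was in a member, 3 were near a start and 54 were in no interval. Many tRNA genes share their sequence with another: 56 of the 83 genes in members had an identical copy elsewhere (67.5%), as did 132 of the 223 in no interval (59.2%). The methods name no filter on mapping quality, so reads within such a copy may be placed at any of its sites, and its part in these peaks was not tested.

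The densest group of members lay in the tRNA clusters of chromosome 13, beside the histone genes. Between 21 and 24 Mb there were 30 members, 28 of them within 2 kb of a tRNA gene, and they held 31 of the 104 tRNA genes there (29.8%). The 1-Mb bin from 21 Mb had 19 members, the most of any bin, and that from 23 Mb had 10. Genome-wide, 893 bins of 1 Mb held a member and 490 of them held exactly 1. Most of the 20 fullest bins held other kinds of site: the bin on chromosome 8 around Gse1, a coiled-coil protein gene of the BRAF35-HDAC complex, had 8, that around Bcor on the X chromosome had 7, and neither had a tRNA gene within 2 kb of any of them. The X chromosome had 51 members among its 159 distal intervals (32.1%), the highest share of any chromosome, although at 0.298 per Mb it had fewer members for its length than any autosome.

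Each of the 10 members with most bases covered by all 4 lists was wider, in every list, than the median interval near a start (963 to 1385 bp). Of the 10, 9 are described here. The member in Lncppara (chr15:85669931-85673172) had 2163 (MGE), 3183 (LGE), 3203 (CGE) and 2155 bp (CTX). A CpG-rich intergenic member 3412 bp from Gm44066 (chr6:128837408-128839759), in the cluster of natural killer receptor genes, had 2168, 2268, 2321 and 2188 bp. Of this pair, LGE and CGE were about 1 kb wider than the other lists only in Lncppara.
The member with n-TLaag8 (chr14:51062862-51066311), which lies among olfactory receptor genes, had 2406 (MGE), 3372 (LGE), 3450 (CGE) and 2079 bp (CTX). That at the RefSeq start of Tln2 (chr9:67632326-67634494) lay 65687 bp from the nearest GENCODE start and had 1931, 1986, 2138 and 1973 bp. That with n-TLtaa4 (chr19:12010118-12012571) had 2369, 1917, 2362 and 2352 bp, with LGE the narrowest, as in 137 of all members (8.04%). The members with n-TPtgg8 (18127 bp from the start of the Wnt ligand gene Wnt11) and n-TLcag5 shared 1757 and 1740 bp between the 4 lists. The last 2 were an intergenic CpG-rich member 23172 bp from Gm15707, which shared 1733 bp, and a member over a RefSeq start of Pura (1727 bp), a gene of a nucleic acid-binding protein needed for brain development.

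**Figure D3:**
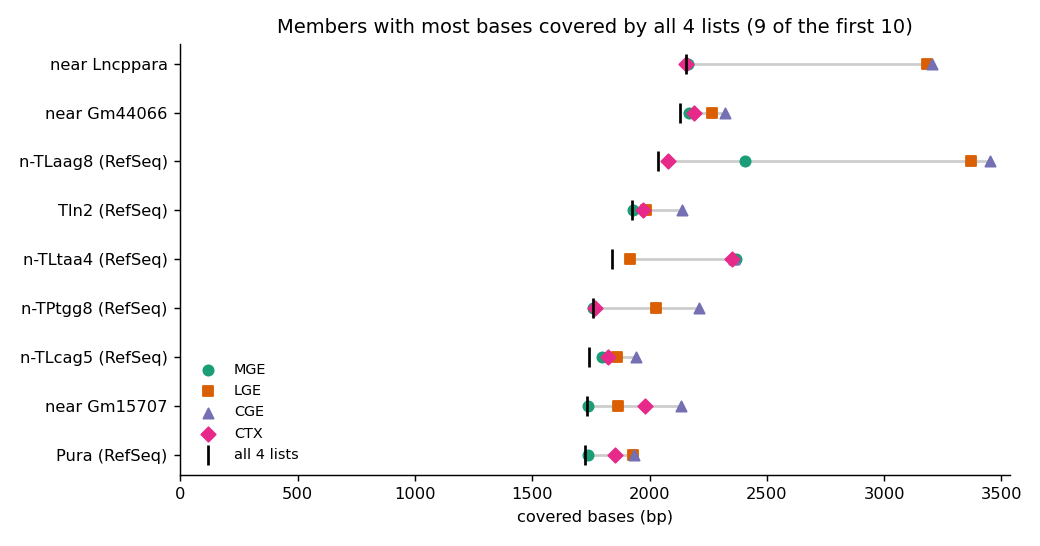
Covered bases (bp) of 9 of the 10 members with most bases covered by all 4 lists, 1 row each, with 1 symbol per list and a black bar for the bases covered by all 4. The shared bases run from 2155 bp at Lncppara to 1727 bp at Pura, and LGE and CGE stand apart from MGE and CTX at Lncppara and n-TLaag8.

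Members near other RefSeq starts shared a median of 424 bp between the lists and 107 of the 276 were CpG-rich (38.8%). Besides Tln2 and Pura, those with most shared bases were at Gm46091 within Pantr1 and at a start of Gpr161. The first, in a noncoding gene next to the neural transcription factor gene Pou3f3, had 1760 (MGE), 2877 (LGE), 4153 (CGE) and 1615 bp (CTX). The second, at the gene of a ciliary receptor that restrains hedgehog signalling, had 1616, 1916, 2486 and 1566 bp. In both, CGE was the widest list. The member at a start of Arhgap32, a gene of a GTPase-activating protein, had the highest GC content of all members (84.8%) and 1572, 2158, 2377 and 1460 bp.

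**Figure D4:**
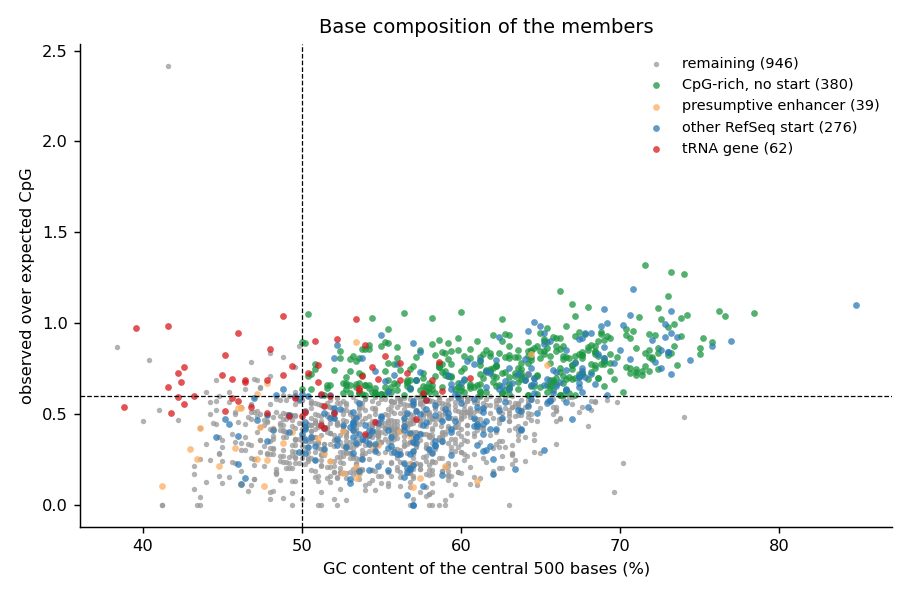
GC content (%) of the 500 bases around the centre of each of the 1703 members against the observed over expected CpG ratio, coloured by class, with dashed lines at the limits for CpG-rich (50% and 0.6). Members near tRNA genes lie at low GC content (median 50.3%) and a CpG ratio near 0.68, and those over presumptive enhancers at low values of both (medians 51.4% and 0.31).

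Of the 135 unique presumptive enhancers that intersect a VISTA candidate, 47 held a member (34.8%). A further 59 held only distal intervals of 3 lists or fewer, and 29 held no distal interval. Of the 135, 124 lay more than 2 kb from a start, and the 47 with a member were all among these (37.9%). Counted from the intervals, 48 members overlapped such an enhancer (2.82%, 2.13 to 3.72), against 0.92% of all distal intervals, 0.395% of those in 1 list, 1.73% in 2 lists and 1.13% in 3 lists. A member covered a median of 30.0% of its enhancer, whose intervals had a median width of 3090 bp. The 39 members classed by this overlap lay far from starts (median 18288 bp, against 10123 bp for all members), 25 had an intronic centre and 4 were CpG-rich. Their windows held the E-box CAGATG in 46.2% (31.6 to 61.4), against 29.7% of all members and 33.6% of all distal intervals. They held TAATTA in 17.9% (9.0 to 32.7), against 9.92% of all members and 14.7% of all distal intervals, both within that interval. The intervals of these shares are wide because only 39 windows stand behind them.

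The enhancer-overlapping member with most shared bases (chr2:61655154-61657326) lay 11323 bp from the start of Tank, an adaptor of NF-kappaB signalling, and had 1546 (MGE), 2105 (LGE), 2065 (CGE) and 1531 bp (CTX). The second (chr10:120551915-120553486) had 1460, 1395, 1422 and 1469 bp, with Hmga2, a chromatin protein gene of fetal neural stem cells, as the nearest protein-coding gene at 75446 bp. The third, whose centre is printed above (chr12:86823820-86825118), had 1085, 1175, 1271 and 1171 bp. These 3 were about as wide in MGE and CTX as in LGE and CGE, except for the member near Tank.
The next ones were next to Bcan (a proteoglycan of the brain matrix, 974 bp shared), in an intron of Gse1 (881 bp) and in an intron of Sdk2 (a synaptic adhesion protein, 845 bp). After them came an intron of Phc2 (a Polycomb subunit, 836 bp), an intergenic member 7610 bp from Gm36635 (787 bp), one 15417 bp from the antiproliferative gene Btg2 (776 bp) and one in an intron of Gm36660 (662 bp). The other 38 were hosted by or nearest to, among others, Gli3, Ptch1, Nfia, Dach1, Vangl2, Ephb2, Sema5b, Gnao1, Srgap3 and Msx3. In the Gli3 intron (chr13:15543225-15544629), a member was covered over 1397 (MGE), 491 (LGE), 841 (CGE) and 873 bp (CTX), so MGE was widest and LGE narrowest, against the general order.

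**Figure D5:**
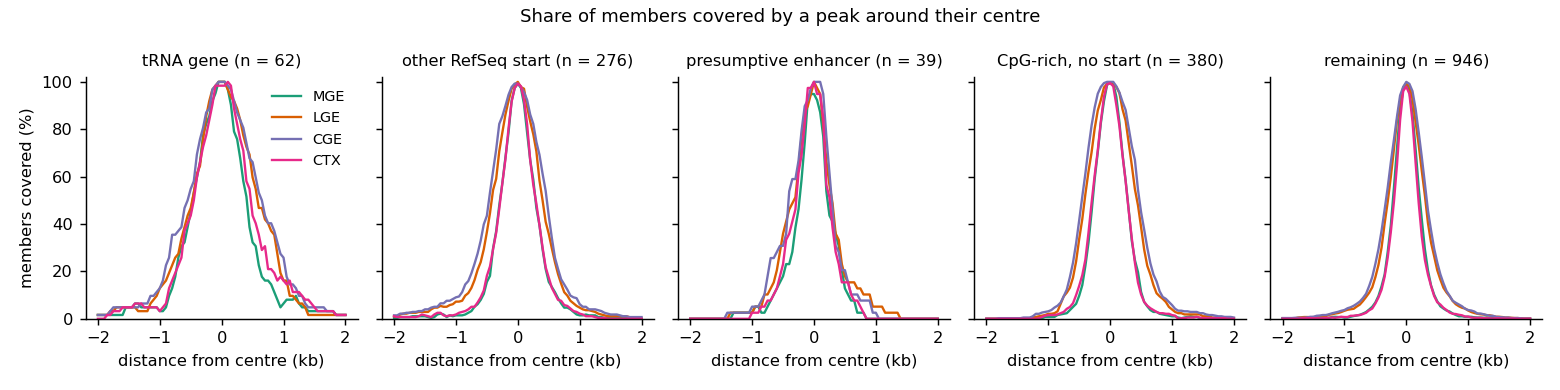
Share of members (%) covered by a peak of each list at a distance (kb) from the member's centre, by class. At 500 bp upstream and downstream on the plus strand, 54.8% and 66.1% of the members near a tRNA gene were still covered in CGE and 45.2% and 32.3% in MGE, and of the remaining members 23.2% and 23.8% in CGE and 6.87% and 7.40% in MGE.

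The members lay a median of 10123 bp from the nearest GENCODE start (9289 to 10738), with a range of 2012 to 272004 bp. The median to the nearest protein-coding one was 16855 bp (15496 to 18162). Between 2 and 5 kb there were 365 members (21.4%), between 5 and 10 kb 480, between 10 and 20 kb 430, between 20 and 50 kb 307, between 50 and 100 kb 101 and beyond that 20 (1.17%). Of the distal intervals in these bands, 15.0%, 16.3%, 14.1%, 10.5%, 8.99% and 4.33% were members. The share of CpG-rich members was 40% in the nearest band and between 23.8% and 30.8% in the others. The member nearest to the limit lay 2012 bp from Vav1 (355 (MGE), 1643 (LGE), 2007 (CGE) and 683 bp (CTX)), and the interval just outside it lay 2000 bp from Gipc2 (530, 523, 849 and 142 bp). Few intervals crowded there: 72 members lay at most 500 bp beyond the limit, and 93 intervals of all 4 lists lay 1500 to 2000 bp from one, while 12642 of the 13121 near-start intervals lay over a start.

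The 5 members farthest from a GENCODE start were intergenic. The farthest (chr18:11351775-11352911) lay 272004 bp from any GENCODE start and had 713 (MGE), 996 (LGE), 1137 (CGE) and 635 bp (CTX). Its nearest protein-coding gene was the DNA repair gene Rbbp8 at 280365 bp. The next (chr2:63702032-63702764), 395224 bp from Fign, had 733, 404, 466 and 359 bp, and that 210925 bp from Adamts6 (chr13:104518272-104518643) had 325, 357, 322 and 316 bp. The fourth (chr7:60492011-60492643) lay 41834 bp from a RefSeq start of the imprinted gene Snrpn, was CpG-rich, and had 413, 472, 633 and 190 bp. Its fold in CTX stood at the 98.6th percentile of that list although CTX was its narrowest list. The fifth (chr8:12126375-12128226) had 1186, 1310, 1800 and 398 bp, so CTX was narrowest there too. Of the 5, CGE was the widest list in 3, MGE in 1 and LGE in 1.

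The 5 members with the largest ratio between lists were wide in LGE and CGE. An intronic member of Ostm1 (chr10:42631005-42634372), a lysosomal protein gene, had 219 (MGE), 3256 (LGE), 2246 (CGE) and 1394 bp (CTX), a ratio of 14.9. That in an intron of Ahdc1 had 410, 1932, 1748 and 153 bp, a ratio of 12.6, with no base shared by all 4 lists. A CpG-rich member 23882 bp from Six3 (chr17:85644913-85646574), a forebrain patterning gene, had 297, 1579, 832 and 127 bp, a ratio of 12.4. For these 3, MGE or CTX was narrowest and LGE widest.
A member in a coding exon of Foxo6 had 182, 2137, 1769 and 279 bp, and that 2643 bp from Mir124-2hg, a host gene of the neuronal microRNA miR-124, had 138, 1323, 1545 and 966 bp. In all, the ratio was over 5 in 135 members (7.93%).

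Since the lists differ in width, each member's covered bases were also divided by the list's median over members, a scale chosen after the values were seen. On it CTX was the highest list in 606 members, MGE in 493, LGE in 304 and CGE in 300, and the highest list exceeded the next by over 2 times in 15, 21, 13 and 18 of them. Members most raised in 1 list by this scale lay in Myo10 (918 bp in MGE against 284 to 373 in the others), the growth hormone-releasing hormone gene Ghrh (1608 bp in LGE against 329 to 535), an intron of the transcriptional repressor gene Bcl6 (1893 bp in CGE against 299 to 584) and 18259 bp from Lzts1 (1139 bp in CTX against 442 to 601), a gene of delaminating cortical cells. A CpG-rich member 8985 bp from Tbr1 (chr2:61815258-61816315), the transcription factor gene of early cortical neurons, was widest in MGE, with 1058 (MGE), 490 (LGE), 591 (CGE) and 261 bp (CTX). A member in a coding exon of Notch3 had 335, 358, 1322 and 169 bp. With 1 list a region, none of these differences could be tested.

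Genes were linked to a member by position alone, as the host gene or the gene of the nearest start. The nearest start was that of a protein-coding gene for 942 members (55.3%), a long intergenic noncoding RNA for 229 and a processed pseudogene for 179. Of 1832 linked genes, 1649 had 1 member, 152 had 2 and 31 had 3 or more. Gse1 had 8 (and Gm20388, a long annotation that spans it, 17), the tRNA-flanked Trim27 had 6, and Maml3, Foxo6, Myo1d, Ostm1, Gpx5 and C030013C21Rik were among those with 4 each. Of the protein-coding genes of GENCODE, 1081 of 21924 were linked to a member (4.93%), and 809 of the 1081 (74.8%) had a peak within 2 kb of a start in all 4 lists while 182 (16.8%) had one in none. The same shares over all protein-coding genes are not given here, so these values do not set the linked genes apart from others.

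Transcription factors of progenitors and patterning were linked to 27 members. Of the 72 genes in that list 21 had a member (29.2%) and 46 had a distal interval of any kind, and 27 of their 162 distal intervals were members (16.7%), against 13.03% for all protein-coding genes. Long genes and genes in gene-poor surroundings may collect more distal intervals, which was not tested, so the share of genes was not compared further. The member with most shared bases lay 4230 bp from Sox4 (chr13:28957943-28959898), a SoxC factor of newborn neurons, with 1897 (MGE), 1528 (LGE), 1642 (CGE) and 1856 bp (CTX). That 7879 bp from Pou3f2 had 1655, 3328, 3229 and 960 bp, that at the 3′ part of Sox11 718, 943, 1137 and 798 bp, and that 7417 bp from Meis1 954, 1085, 1372 and 675 bp. The other genes included Gli2 and Gli3, the transcriptional effectors of hedgehog signalling, and the eminence genes Gsx2, Meis2 and Sp8.

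GABAergic genes had 6 members at 6 of 33 genes, and glutamatergic genes 6 members at 5 of 24. These were 6 of 32 (18.8%) and 6 of 48 linked distal intervals, against 13.03% for all protein-coding genes. In the first list the Lhx6 member (chr2:36090791-36091786) had 572 (MGE), 881 (LGE), 851 (CGE) and 451 bp (CTX), although within 2 kb of the Lhx6 starts CTX had no peak. That near Lmo1 had 986, 532, 1052 and 444 bp. CTX was the narrowest list in both.
In an intron of Npas3 a member had 496, 770, 320 and 490 bp, with CGE the narrowest. In the second list, a member 3902 bp from Neurod6 (chr6:55676769-55677361), a factor of cortical projection neurons, had 328, 480, 584 and 242 bp, while no list had a peak within 2 kb of the Neurod6 start. An intronic member of Cux2 had 563, 394, 758 and 744 bp, and an intergenic one 8642 bp from Nhlh1 had 417, 557, 625 and 450 bp. Besides Neurod6, only Spi1 and Trappc9 among the 77 listed genes with a member had no such peak in any list, and 69 of the 77 had one in all 4. The share over all genes is not given beside this count either.

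The Notch pathway, which keeps neural progenitors from differentiating, had 12 members at 8 of 27 genes. These were 26.7% of its 45 distal intervals, against 13.03% for all protein-coding genes. They lay near the ligand genes Dll1 and Dll4, at the receptor genes Notch1 and Notch3, at the coactivator gene Maml3, near the target genes Hes5 and Nrarp, and near Dner. The Nrarp member, 11956 bp from the start (chr2:25167540-25168802), was nearly even, with 1092 (MGE), 1107 (LGE), 1131 (CGE) and 1143 bp (CTX). The Dll4 member had 720, 934, 917 and 715 bp, although MGE had no peak within 2 kb of the Dll4 starts. The Dll1 member had 969, 519, 683 and 952 bp, and that in a Notch1 intron 513, 964, 1089 and 613 bp. Among these 4 the order of the lists thus differed from gene to gene.

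The hedgehog, Wnt, FGF and BMP pathways had 13 members at 11 of 45 genes (12.6% of 103 distal intervals, against 13.03% for all protein-coding genes). Receptor genes led, with introns of Fgfr1 (771 (MGE), 943 (LGE), 941 (CGE) and 1022 bp (CTX)) and Fgfr2 (571, 732, 702 and 625 bp), followed by introns of Axin2, an inhibitor of Wnt signalling, and Etv5, a target of FGF signalling. Chromatin regulators had 16 members at 10 of 38 genes (24.6% of 65 distal intervals, against the same 13.03%). An intronic member of the corepressor gene Bcor (chrX:12133540-12137471) had 2018 (MGE), 2512 (LGE), 3932 (CGE) and 1261 bp (CTX). A member 2957 bp from Kdm5b, which encodes a demethylase of H3K4, had 833, 823, 883 and 939 bp, and 1 further member of Bcor had 764, 1575, 1733 and 1355 bp.

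Cell cycle and growth genes had 6 members at 5 of 18 genes, with 2 at Btg2 (1008, 958, 776 and 1020 bp for that with more shared bases) and 1 each at Ccne1, Ccnd1, Ccnd2 and Ccnd3. These were 37.5% of only 16 distal intervals, against 13.03% for all protein-coding genes. Radial glia and neuronal structure genes had 5 members among 92 distal intervals (5.43%), at Celf4, Nrxn3, Slc1a3 and Nav1. Imprinted genes had 4 members at H13, Inpp5f, Mkrn3 and Trappc9 among 27 distal intervals (14.8%). Regulators of non-neural lineages had 4 members among 21 (19.05%), at Spi1, Tal1 and Runx1. The Spi1 member with more shared bases, 3113 bp from the start of this myeloid factor gene (chr2:91078103-91079277), was CpG-rich. It had 840 (MGE), 1155 (LGE), 1175 (CGE) and 803 bp (CTX), and no list had a peak within 2 kb of an Spi1 start. The lists of genes were chosen with earlier results of these data known, and each count is a description.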

How the data were processed

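Paired-end CUT&Tag reads were aligned by the authors to GRCm38/mm10 with Bowtie2, reads in blacklisted regions and PCR duplicates (Picard) were removed, replicates were merged with SAMtools and broad peaks were called with MACS, whose version, threshold and control are not given in the sources used here. The deposited lists give each peak a score (10 times the −log10 q, cut to a whole number), the authors' fold enrichment (a ratio to the estimated background) and the authors' −log10 p, which was not used, and −log10 q. These grow with depth and were read as ranks or limits within a list.

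Union intervals, covered bases, distances to GENCODE M21 and RefSeq (GRCm38.p6) starts and base composition were derived with numpy 2.4.6 and scipy 1.17.1 under Python 3.11.15, and figures drawn with matplotlib 3.10.9. The interval arithmetic was tested on simulated data. An overlap was at least 1 bp. Promoter peaks of the label markers were peaks in the 2 kb upstream of a start. Presumptive enhancers were the 135 unique intervals that intersect VISTA candidates, and the full list of presumptive enhancers was not used here. The members and lists were chosen with earlier results of these data known. Members named were the 10 with most bases shared by all 4 lists, the 5 farthest from a start, the 5 with the largest ratio between lists, those over an enhancer, those linked to a listed gene (values for at most 4 a list) and those at the 2 kb limit. Others were chosen after their values were seen. No test was run, since each region has 1 list. Some members and 1 sequence are not reported here.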

Additional observations from a re-analysis of the deposited data

How the results depend on the processing

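No paired analysis was possible because the authors pooled the replicates of a region into 1 peak list. Of 51 alternatives tried for 11 results, 35 stayed within 1.5 times the count or within the 95% interval reported, and 16 moved beyond it. The 1703 members became 858 beyond 10 kb of a start, 3011 with gene 5′ ends as the only starts and 757 with at least 50% of the interval under each list. With 1 list left out, distal intervals in the other 3 numbered 1823 to 2047. With a −log10 q of at least 2 the median covered bases were 537 (MGE), 786 (LGE), 864 (CGE) and 536 bp (CTX), and 32.9% of members were CpG-rich. The share inside a gene was 40.4% with protein-coding genes only and 43.8% beyond 5 kb of a start, and the median distance to a protein-coding start was 16855 bp. At least 50% of an enhancer was covered in 7 cases in place of 47. The CpG-rich share was 21.1% over whole intervals and 13.7% with limits of 55% and 0.75. Within 1 kb of a RefSeq start lay 17.2% of members. Without chromosome 13, an alternative chosen after seeing the data, 2.12% of members lay near a tRNA gene in place of 3.64%. The stated sequencing depths differ between regions and each region has 1 list, so peak edges carry no error, and a site in fewer lists may be marked below detection in the others.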

Other observations

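Few members had a centre made almost wholly of repeats. In 29 of 1703 members (1.70%) at least 90% of the 500 bases around the centre were soft-masked in the reference, against 511 of 11236 other distal intervals (4.55%). An intronic member of Mepe, a gene of bone matrix, was 92.4% masked and yet among the 6 remaining-class members with most shared bases, with 1496 (MGE), 1396 (LGE), 1431 (CGE) and 1413 bp (CTX). A wholly masked member 32451 bp from Ccl21a on chromosome 4 had a CpG ratio of 2.42 at a GC content of 41.6%, the highest ratio of all members, and 1252 (MGE), 651 (LGE), 392 (CGE) and 319 bp (CTX). Both were chosen after their values were seen. The methods state no filter on reads that map to several places, and the part of such reads in these peaks was not tested.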
